A study of Homo sapiens with 9 samples.

Results

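Interferon-stimulated genes are the genes that a cell switches on when interferon binds its receptors, and 48 genes listed under that name by symbol were followed here. The list uses no measured value in its rule, though it was drawn up when other results of these data were known. All 48 had a probe set among the 19934 genes measured. The cells were WM793TR, a human melanoma cell line of the vertical growth phase with mutant BRAF, which expressed a TWIST1 shRNA and a CMV-driven TWIST1 cDNA (shTWIST1 + TWIST1), the TWIST1 shRNA alone (shTWIST1), or a control shRNA (shControl). Every group received 100 ng/mL doxycycline for 96 h, and there were 3 expression arrays a group and 9 in all. The labels call the last group basal, which was read as the control shRNA named in the growth conditions. The labels name no interferon treatment.

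Type I and type III interferons act through receptors coupled to JAK1 and TYK2, and interferon gamma acts through a receptor coupled to JAK1 and JAK2. The kinases activate STAT proteins, which together with IRF9 bind the interferon-stimulated response element (ISRE) or as dimers bind a shorter palindromic site, and transcription of the target genes follows. The products block viral entry, sense or degrade viral RNA, attach the ubiquitin-like protein ISG15 to other proteins, attract lymphocytes, or damp the pathway itself. In melanoma these genes are best known from the response of tumors to interferon released by T cells. TWIST1 is a basic helix-loop-helix factor that binds E-boxes together with E-proteins.

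TWIST1 itself measured 8.75, 8.90 and 8.27 in shTWIST1 + TWIST1 cells, 6.18, 6.22 and 6.28 in shTWIST1 cells and 6.77, 7.10 and 7.15 in shControl cells on the log2 scale, so it lay above the control level where the cDNA was present. Its log2 fold change was 1.63 against shControl (limma adjusted p = 0.00199), 2.41 against shTWIST1 (adjusted p = 0.000291) and −0.78 for shTWIST1 against shControl (adjusted p = 0.293), with no overlap between any of the groups. The array medians lay between 4.73 and 4.79. Of 5 melanocyte lineage markers, SOX10 (8.07 to 9.05) and MITF (4.95 to 5.54) were present while PMEL, MLANA and TYR had means under the lower quartile of all genes, as did 4 of 4 endothelial and 4 of 5 leukocyte markers, and leukocyte marker values ranged between 2.04 and 4.08. Of 4 keratinocyte markers 1 had a mean under that quartile, and their values reached 5.39 (KRT14). Between shTWIST1 + TWIST1 and shControl cells SOX10 and MITF did not overlap, with log2 fold changes of −0.50 and −0.28 that did not pass the test, and no marker passed in any comparison. The labels do not say whether the replicates were separate cultures, so the p-values measure the spread between these arrays, which may be technical. The populations may differ in more than TWIST1, which cannot be told apart here, and in bulk RNA fewer expressing cells and less RNA per cell cannot be told apart either.

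Most interferon-stimulated genes did not pass the adjusted test in any comparison, which does not mean that they differed little. In shTWIST1 + TWIST1 against shControl, 14 of 48 members (29.2%) had a log2 fold change over 0.5 in size, beside 7.4% of all genes. For a size over 1 there were 7 members (14.6%), beside 2.0% of all genes. The members also varied more within groups, with a median SD of 0.27 beside 0.15 for all genes. The sizes alone therefore do not show that the members differed more between groups than other genes. In shTWIST1 against shControl 8.33% of members and 2.75% of all genes were over 0.5 in size. There 6.25% and 6.62% had an unadjusted limma p under 0.05. Over the 9 arrays a gene's values spanned between 0.10 (GBP4) and 2.91 (LGALS3BP), and 14 genes spanned under 0.5. There were 11 members whose mean lay under the lower quartile of all genes: GBP4, GBP5, IFI44L, BST2, RSAD2, EPSTI1, XAF1, OAS2, TRIM22, MX2 and OASL. OASL, EPSTI1 and GBP4 had one identical value on all 3 arrays of a group, so probe sets this dim may not show a small change. The largest log2 fold change of the 11 in any comparison was 0.45 in size. That mean includes the arrays compared, so a dim gene that rose can leave this set, and the small size is partly fixed by the cut. HERC5 (means of 2.36 and 2.56) and CXCL10 (2.51 and 2.29) lay under that quartile in shTWIST1 and shControl cells. Their log2 fold changes in shTWIST1 + TWIST1 against shControl were 1.62 and 1.88. The heatmap of all members shows which genes stood apart.

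**Figure D1:**
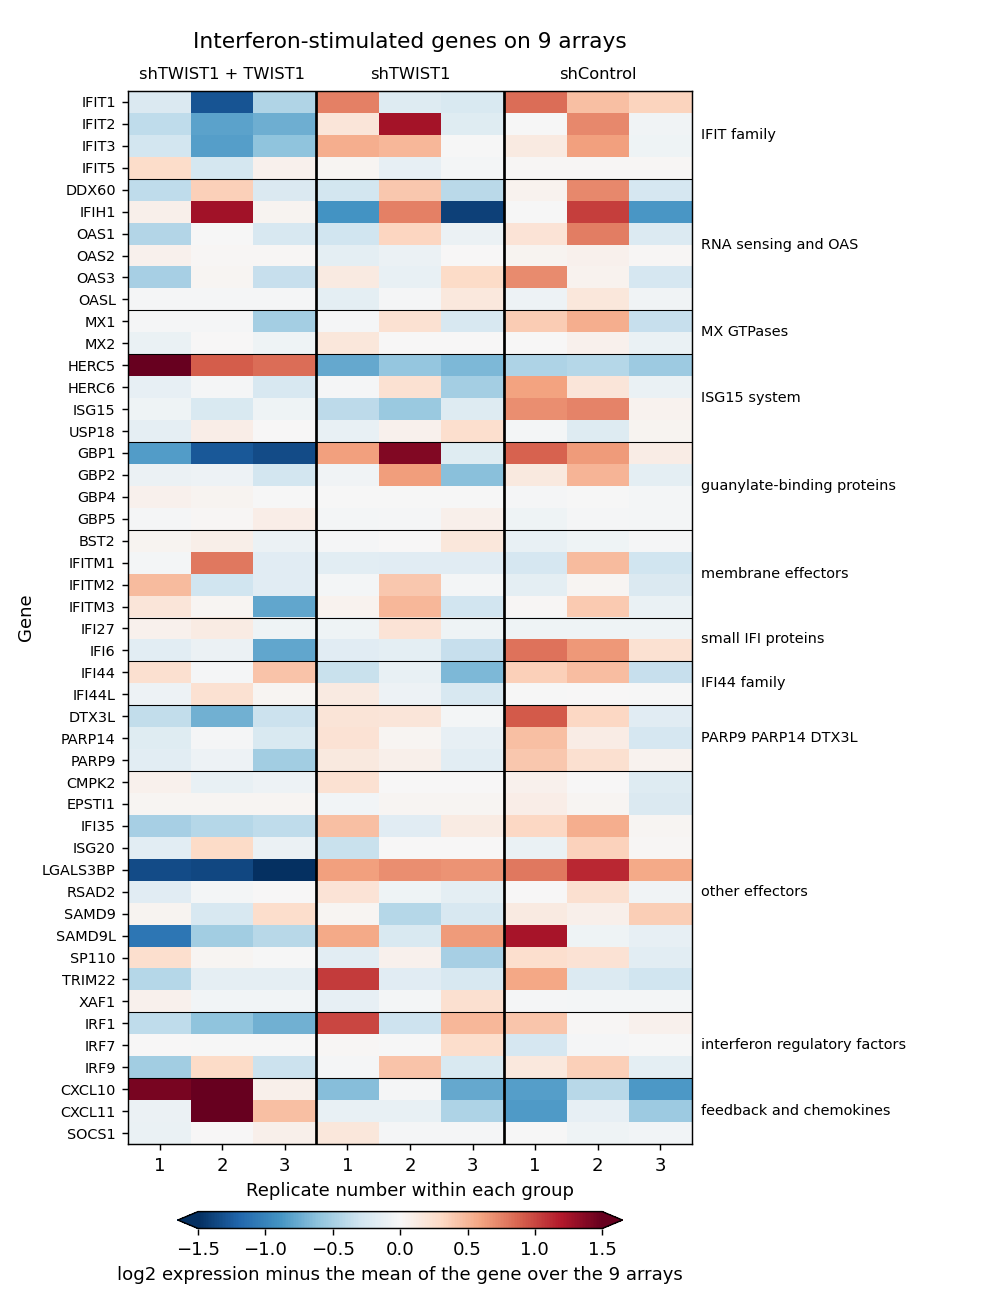
Each row is 1 of the 48 interferon-stimulated genes, grouped by role, and each column 1 of the 9 arrays, with shTWIST1 + TWIST1 on the left, shTWIST1 in the middle and shControl on the right. Colour gives the log2 expression minus the mean of that gene over the 9 arrays, and values beyond 1.5 have the end colours. LGALS3BP and GBP1 are low and HERC5 and CXCL10 high in shTWIST1 + TWIST1 cells.

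Comparison of shTWIST1 + TWIST1 with shControl cells asked what a TWIST1 level above that of the control went with. LGALS3BP fell and HERC5 rose, and the other 46 members did not pass an adjusted p of 0.05. The 2 members are 4.17% of the list, where 2.62% of all genes passed, 1.08% as higher and 1.55% as lower. A further 3 genes with large differences, GBP1, CXCL10 and IFI6, had adjusted p-values between 0.0571 and 0.0748. The median log2 fold change of the members was −0.10 and that of all genes 0.02, and 29 of 48 members were below 0.

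LGALS3BP, a secreted glycoprotein that binds galectins, measured 5.40, 5.37 and 4.96 in shTWIST1 + TWIST1 cells, 7.36, 7.43 and 7.41 in shTWIST1 cells and 7.53, 7.87 and 7.31 in shControl cells. All 3 arrays with the TWIST1 cDNA lay far below every other array, and the other groups overlapped with each other. The gene fell by 2.32 ± 0.16 (log2, SE) against shControl, which is 5.01-fold (adjusted p = 0.000496), and by 2.15 ± 0.16 against shTWIST1, which is 4.45-fold (adjusted p = 0.000422). Without any single array its adjusted p stayed at or under 0.00377 in both comparisons.

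HERC5, the main ligase that joins ISG15 to newly made proteins in human cells, moved the other way. It measured 4.73, 3.94 and 3.88 in shTWIST1 + TWIST1 cells, 2.27, 2.46 and 2.36 in shTWIST1 cells and 2.57, 2.61 and 2.50 in shControl cells. The groups with and without the cDNA did not overlap, and replicate 1 with the cDNA was the highest array. The gene rose by 1.62 ± 0.20 (log2, SE; 3.08-fold) against shControl (adjusted p = 0.00558) and by 1.82 ± 0.20 (3.53-fold) against shTWIST1 (adjusted p = 0.00272), and the largest adjusted p without a single array was 0.0274. In both groups without the cDNA it lay in the range of the dim genes, under the limit of 3.22 used when dim genes were left out.

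GBP1, a large interferon-induced GTPase that acts against pathogens inside the cell, measured 4.95, 4.51 and 4.45 in shTWIST1 + TWIST1 cells, 6.41, 7.18 and 5.61 in shTWIST1 cells and 6.67, 6.42 and 5.90 in shControl cells. Every array with the cDNA was below every array without it, and shTWIST1 cells had a spread of 0.79 (SD). The gene fell by 1.76 ± 0.37 (log2, SE; 3.39-fold) against shTWIST1 (adjusted p = 0.042), and its log2 fold change against shControl was −1.69 ± 0.37 (adjusted p = 0.0571). Both values sit near the threshold. Of the 9 arrays, leaving out any one other than shTWIST1 replicate 3 ended the call against shTWIST1 (adjusted p between 0.0594 and 0.128, beside 0.0187 without shTWIST1 replicate 3), and leaving out shTWIST1 replicate 2 or 3 made the difference from shControl a call (adjusted p = 0.0241 and 0.0288).

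The plot of values by array shows these 3 genes beside 5 further members whose differences did not pass the test.

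**Figure D2:**
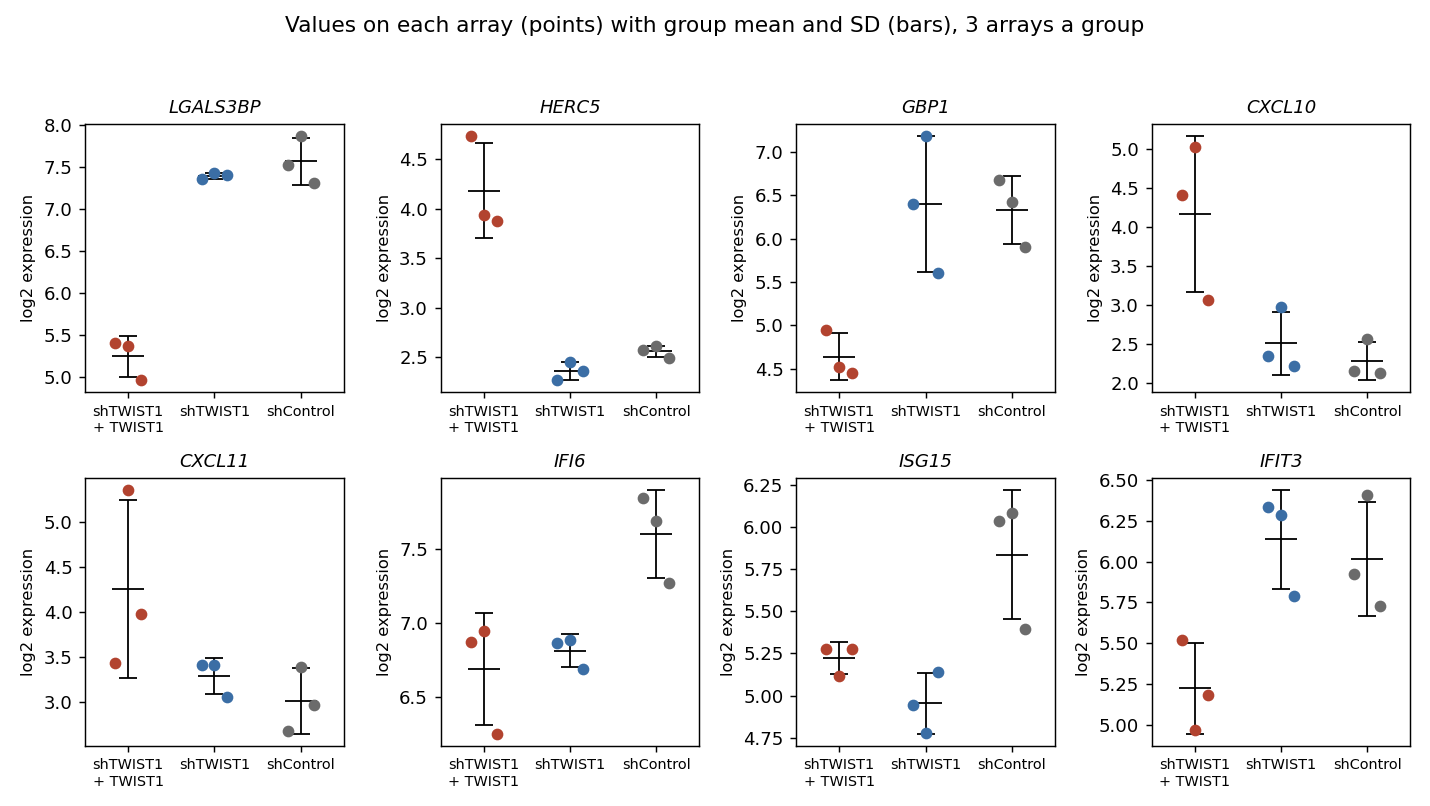
Points are the log2 expression on each of 3 arrays a group, and black bars the group mean and SD, for 8 interferon-stimulated genes, with shTWIST1 + TWIST1 on the left, shTWIST1 in the middle and shControl on the right of each panel. The y axes differ between panels and do not start at 0. LGALS3BP, HERC5 and GBP1 with the TWIST1 cDNA do not overlap with either other group, while IFI6 and ISG15 are lower in both groups that carry the TWIST1 shRNA.

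The promoters of these 3 genes are given because they are the members that passed the test, and because each can be searched for the letters that interferon-activated factors and TWIST1 recognise. Each sequence runs from 250 bases before the start site to 50 bases after it and comes from RefSeq on GRCh38.p14: GBP1 from chr1:89065159-89065458 on the minus strand, HERC5 from chr4:88456869-88457168 on the plus strand, and LGALS3BP from chr17:78979874-78980173 on the minus strand. Capitals mark matches to the ISRE, searched as GAAANNGAAA on both strands, and to the E-box, searched as CANNTG.
LGALS3BP: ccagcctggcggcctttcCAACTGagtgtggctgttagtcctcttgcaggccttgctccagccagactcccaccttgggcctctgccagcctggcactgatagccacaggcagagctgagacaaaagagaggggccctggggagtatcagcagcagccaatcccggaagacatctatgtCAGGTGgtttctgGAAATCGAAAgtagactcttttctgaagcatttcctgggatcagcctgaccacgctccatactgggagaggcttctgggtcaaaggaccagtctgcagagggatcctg
HERC5: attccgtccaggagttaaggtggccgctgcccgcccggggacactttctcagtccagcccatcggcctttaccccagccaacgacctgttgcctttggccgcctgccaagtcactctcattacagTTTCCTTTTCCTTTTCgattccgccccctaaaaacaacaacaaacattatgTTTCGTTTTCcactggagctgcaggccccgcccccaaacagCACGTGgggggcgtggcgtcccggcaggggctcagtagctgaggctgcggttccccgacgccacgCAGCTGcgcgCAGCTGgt
GBP1: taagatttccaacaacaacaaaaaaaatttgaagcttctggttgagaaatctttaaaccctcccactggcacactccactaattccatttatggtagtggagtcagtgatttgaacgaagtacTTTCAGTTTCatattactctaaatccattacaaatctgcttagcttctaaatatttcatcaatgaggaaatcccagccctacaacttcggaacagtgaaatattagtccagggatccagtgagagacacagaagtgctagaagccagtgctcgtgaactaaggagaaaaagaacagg

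All 3 promoters held an ISRE match. That of LGALS3BP started 58 bases before the start site, that of GBP1 127 bases before it on the opposite strand, and HERC5 had 3 on the opposite strand, which started 125, 119 and 74 bases before the start site, of which the first pair overlap and form one run of capitals. LGALS3BP had 2 E-box matches, both before the start site, and GBP1 had none. HERC5 had 3, CACGTG 33 bases before the start site and CAGCTG 32 and 42 bases after it. None of the 3 held the STAT dimer site, searched as TTCNNNGAA. Of the 48 members 38 were matched to a promoter in the table, of which the first listed was taken where a gene had several. An ISRE match was found in 26 of these 38 (68.4%) and in 3.65% of the 27305 promoters of all genes, a STAT dimer site in 11 (28.9%, against 7.88% of all promoters), and an E-box in 26 (68.4%, against 68.9%). Matches were counted whether or not they overlapped with another motif. Against shControl, the 26 members with an ISRE match had a median log2 fold change of −0.13 in shTWIST1 + TWIST1 cells and the 12 without one −0.33, and both lists held members above and below 0.

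The chemokines CXCL10 and CXCL11, ligands of the receptor CXCR3 that draw T cells, had higher means with the cDNA but a wide spread. CXCL10 measured 4.41, 5.03 and 3.07 in shTWIST1 + TWIST1 cells, 2.35, 2.98 and 2.22 in shTWIST1 cells and 2.16, 2.57 and 2.14 in shControl cells. CXCL11 measured 3.43, 5.35 and 3.97 in shTWIST1 + TWIST1 cells, 3.40, 3.40 and 3.05 in shTWIST1 cells and 2.67, 3.39 and 2.96 in shControl cells. Neither gene's values with the cDNA overlapped with those of the other groups, although CXCL11 replicate 1 with the cDNA was only just above them. The log2 fold change of CXCL10 was 1.88 ± 0.44 against shControl (adjusted p = 0.0748) and 1.66 ± 0.44 against shTWIST1 (adjusted p = 0.0936), and that of CXCL11 1.24 ± 0.43 (adjusted p = 0.228) and 0.96 ± 0.43 (adjusted p = 0.303). In both groups without the cDNA CXCL10 lay under the limit of 3.22 used for dim genes, so these differences are not exact folds. Replicate 3 with the cDNA had the lowest CXCL10 of its group, and without it the adjusted p was 0.00968 against shControl and 0.0118 against shTWIST1. Without other single arrays the adjusted p of CXCL10 reached 0.233 and 0.243.

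Members of the IFIT family bind viral RNA and block its translation. They had mostly lower means with the cDNA, and none passed the test that left the replicate number out. IFIT1 measured 5.87, 4.79 and 5.64 in shTWIST1 + TWIST1 cells, 6.84, 5.89 and 5.86 in shTWIST1 cells and 6.92, 6.54 and 6.42 in shControl cells. IFIT2, its partner in the same complex, measured 4.39, 3.96 and 4.04 in shTWIST1 + TWIST1 cells, 4.95, 6.02 and 4.59 in shTWIST1 cells and 4.77, 5.49 and 4.72 in shControl cells. IFIT3, which stabilises IFIT1, measured 5.52, 4.97 and 5.18 in shTWIST1 + TWIST1 cells, 6.33, 6.29 and 5.79 in shTWIST1 cells and 5.92, 6.40 and 5.73 in shControl cells. For all 3 genes the arrays with the cDNA lay below those of shControl without overlap, and for IFIT2 and IFIT3 below those of shTWIST1 as well. Against shControl their log2 fold changes were −1.20 ± 0.34 (adjusted p = 0.136), −0.86 ± 0.36 (adjusted p = 0.328) and −0.79 ± 0.22 (adjusted p = 0.131). The fourth member, IFIT5, had a log2 fold change of 0.01.

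Among genes that regulate the response, IRF1, a transcription factor induced most strongly by interferon gamma, measured 4.81, 4.59 and 4.47 in shTWIST1 + TWIST1 cells, 6.19, 4.88 and 5.69 in shTWIST1 cells and 5.61, 5.20 and 5.26 in shControl cells. The cDNA group was the lowest without overlap, with log2 fold changes of −0.73 ± 0.29 against shControl (adjusted p = 0.301) and −0.96 ± 0.29 against shTWIST1 (adjusted p = 0.134). IRF9, the DNA-binding partner of the STAT proteins, and IRF7, which drives interferon genes, had log2 fold changes of −0.31 and 0.09 against shControl. SOCS1, a feedback inhibitor of the JAK kinases, and USP18, which removes ISG15 from proteins and damps the type I receptor, had values of 0.03 and 0.05.

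SAMD9L, a protein that restricts viral translation, measured 4.37, 4.93 and 5.03 in shTWIST1 + TWIST1 cells, 6.01, 5.22 and 6.09 in shTWIST1 cells and 6.68, 5.38 and 5.32 in shControl cells. Its arrays with the cDNA were the lowest without overlap, but the log2 fold change against shControl of −1.02 ± 0.39 had an adjusted p of 0.282, and shControl replicate 1 stood well above its group. DTX3L, a ubiquitin ligase that works with PARP9, measured 5.75, 5.40 and 5.80 in shTWIST1 + TWIST1 cells, 6.31, 6.29 and 6.09 in shTWIST1 cells and 7.03, 6.43 and 5.94 in shControl cells. It too was lowest with the cDNA without overlap, with a log2 fold change of −0.82 ± 0.25 against shControl (adjusted p = 0.16), beside −0.48 for PARP9 and −0.24 for PARP14, both ADP-ribosyltransferases. IFI35, a protein that binds other interferon-induced factors, had −0.73 ± 0.17 (adjusted p = 0.0752).

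Over the whole list, 12 of 48 members (25%) lay below shControl without overlap and 3 of 48 (6.25%) above it. Of all genes 8.15% were lower and 10.4% higher in this way. Among the 23 members whose mean over all arrays was at or above the median of all genes, 11 (47.8%) lay below shControl without overlap. In this way 0 lay above it, and of all genes at that level 12% lay below and 11.6% above. The median log2 fold change of these members was −0.31, beside 0.01 for all genes at that level. That mean includes the arrays compared, so entry into this subset depends partly on the change, and the subset cannot show a common direction. The 3 members above shControl, HERC5, CXCL10 and CXCL11, fell under the cut of 4.76. IFIT2, GBP1 and IRF1 passed it with lower means in shTWIST1 + TWIST1 cells (4.13, 4.64 and 4.62). At an unadjusted p under 0.05 there were 15 members (31.2%), beside 14.2% of all genes. These shares describe the list, since its members are not independent and some respond to the same factors, and most of these genes did not pass the adjusted test one by one.

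**Figure D3:**
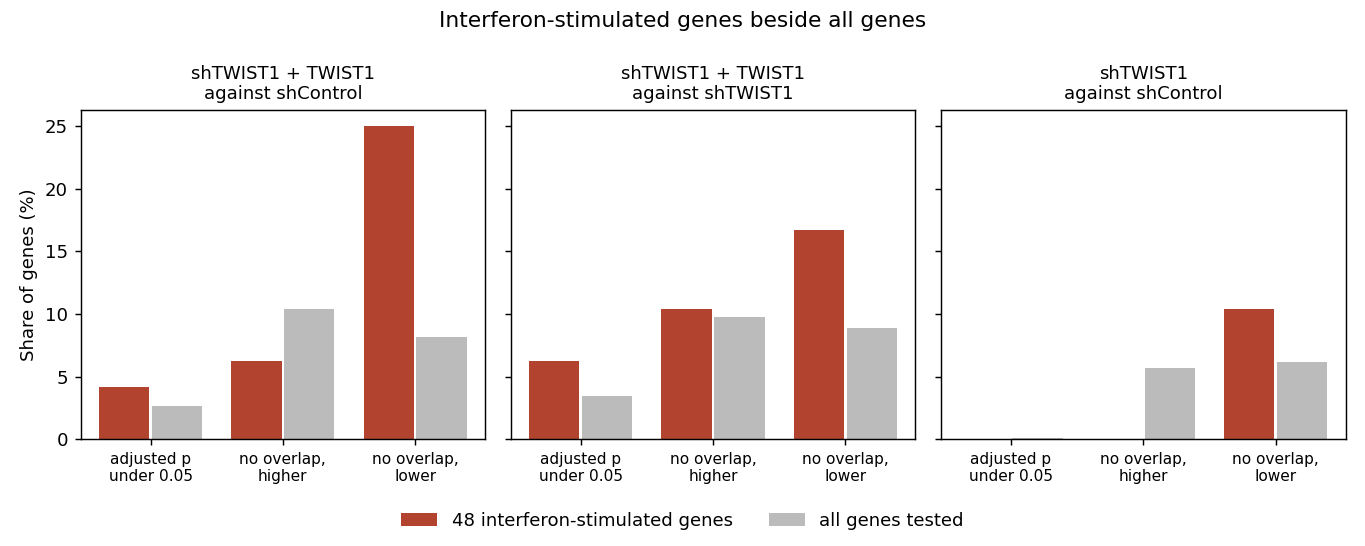
Bars give the share in percent of the 48 interferon-stimulated genes (red) and of all 19934 genes tested (grey) with an adjusted p under 0.05, and with arrays that lay all above or all below the other group, in 3 comparisons. The largest gap is in the first panel, where 25% of the members and 8.15% of all genes were lower without overlap in shTWIST1 + TWIST1 than in shControl cells.

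Comparison of shTWIST1 + TWIST1 with shTWIST1 cells asked what the cDNA changed on the background of the same shRNA, and it used the same cDNA arrays. HERC5 rose, LGALS3BP and GBP1 fell, and 45 members did not pass. These 3 are 6.25% of the members, where 3.42% of all genes passed, 1.65% as higher and 1.77% as lower. The median log2 fold change was −0.07 beside 0.01 for all genes, and 30 of 48 members were below 0. There were 8 members (16.7%) that lay below shTWIST1 without overlap and 5 (10.4%) above it, beside 8.86% and 9.77% of all genes, and 11 members (22.9%) had an unadjusted p under 0.05, beside 17.3% of all genes.

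With the replicate number as a block, 7 members passed in this comparison, where 5.4% of all genes did. CXCL10 (adjusted p = 0.0238) and IFIH1 (adjusted p = 0.0393) joined HERC5 among those that were higher, and IFIT3 (adjusted p = 0.047) and IRF1 (adjusted p = 0.0478) joined LGALS3BP and GBP1 among those that were lower. IFIH1, which encodes MDA5, a sensor of long double-stranded RNA, measured 6.43, 7.62 and 6.40 in shTWIST1 + TWIST1 cells, 5.46, 7.12 and 4.96 in shTWIST1 cells and 6.36, 7.40 and 5.49 in shControl cells. The groups overlapped, but the cDNA array was above the shTWIST1 array of the same number each time, by 0.97, 0.50 and 1.44 for replicates 1, 2 and 3. Without the block its log2 fold change of 0.97 ± 0.66 had an adjusted p of 0.502.

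Further members had moderate differences from shTWIST1 without passing. IFI44, a cytoplasmic protein of little known function, measured 5.40, 5.15 and 5.59 in shTWIST1 + TWIST1 cells, 4.83, 5.05 and 4.49 in shTWIST1 cells and 5.51, 5.63 and 4.81 in shControl cells. Its values with the cDNA were above those of shTWIST1 without overlap (log2 fold change 0.59 ± 0.23, adjusted p = 0.244) and overlapped with shControl. The other large differences were −1.05 for IFIT2 (adjusted p = 0.179), −0.997 for SAMD9L (adjusted p = 0.244), −0.91 for IFIT3 (adjusted p = 0.0693), −0.77 for IFIT1 (adjusted p = 0.295) and −0.58 for DTX3L (adjusted p = 0.274).

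Comparison of shTWIST1 with shControl cells asked what lowering TWIST1 went with. None of the 48 members passed in limma, and 0.0652% of all genes did. At an unadjusted p under 0.05 there were 3 members (6.25%), ISG15, IFI6 and SAMD9, beside 6.62% of all genes. The t-test with unequal variance called 0 of all genes after adjustment, so its lack of calls says nothing about the members. The median log2 fold change was −0.06 beside 0.02 for all genes. No member lay above shControl without overlap, where 5.66% of all genes did, and 5 (10.4%) lay below it, beside 6.18% of all genes. The 95% interval of the log2 fold change lay within ±1 for 39 members, so a change of 2-fold or less stays possible for those, and a larger one for the other 9.

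ISG15, the ubiquitin-like protein itself, measured 5.28, 5.12 and 5.28 in shTWIST1 + TWIST1 cells, 4.95, 4.78 and 5.14 in shTWIST1 cells and 6.03, 6.08 and 5.39 in shControl cells. Both groups with the TWIST1 shRNA lay below shControl without overlap, and shControl replicate 3 was the lowest of its group. The log2 fold change was −0.88 ± 0.18 in shTWIST1 cells (adjusted p = 0.279) and −0.61 ± 0.18 in shTWIST1 + TWIST1 cells (adjusted p = 0.155). Without shControl replicate 3 it was −1.10 (adjusted p = 0.0407) and −0.84 (adjusted p = 0.0233), and without other single arrays the adjusted p reached 0.768 and 0.431. IFI6, a membrane protein of the endoplasmic reticulum and mitochondria, measured 6.87, 6.95 and 6.25 in shTWIST1 + TWIST1 cells, 6.87, 6.89 and 6.69 in shTWIST1 cells and 7.85, 7.69 and 7.27 in shControl cells. It too was lower in both groups with the shRNA without overlap, with log2 fold changes from shControl of −0.79 ± 0.21 in shTWIST1 cells (adjusted p = 0.462) and −0.91 ± 0.21 in shTWIST1 + TWIST1 cells (adjusted p = 0.0635). The cDNA group differed from the shRNA group by 0.27 for ISG15 and −0.12 for IFI6, neither past the test. For both genes the means of the groups with the TWIST1 shRNA lay nearer to each other than to shControl, whereas for LGALS3BP and GBP1 shTWIST1 lay near shControl.

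Smaller differences were found in 4 further genes. SAMD9, a paralog of SAMD9L, measured 7.76, 7.47 and 7.97 in shTWIST1 + TWIST1 cells, 7.75, 7.29 and 7.48 in shTWIST1 cells and 7.85, 7.79 and 8.09 in shControl cells. OAS1, which makes the oligoadenylates that activate RNase L, measured 4.22, 4.65 and 4.42 in shTWIST1 + TWIST1 cells, 4.36, 4.98 and 4.57 in shTWIST1 cells and 4.87, 5.43 and 4.45 in shControl cells. For SAMD9 the shTWIST1 arrays lay below shControl without overlap (log2 fold change −0.41 ± 0.16, adjusted p = 0.688), and for OAS1 the groups overlapped (−0.28 ± 0.26, adjusted p = 0.876). HERC6, a relative of HERC5 that is the ISG15 ligase in mouse, measured 4.12, 4.21 and 3.997 in shTWIST1 + TWIST1 cells, 4.22, 4.46 and 3.72 in shTWIST1 cells and 4.84, 4.41 and 4.14 in shControl cells. SP110, a nuclear body protein, measured 6.53, 6.30 and 6.27 in shTWIST1 + TWIST1 cells, 6.12, 6.35 and 5.78 in shTWIST1 cells and 6.54, 6.49 and 6.13 in shControl cells. Both overlapped between all groups, with log2 fold changes from shControl in shTWIST1 cells of −0.33 ± 0.22 (adjusted p = 0.842) and −0.30 ± 0.17 (adjusted p = 0.807).

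Smaller differences from shControl, none past the test, were measured in further antiviral genes. The dynamin-like GTPases MX1 and MX2 had log2 fold changes from shControl of −0.37 and −0.04 in shTWIST1 + TWIST1 cells and −0.20 and 0.07 in shTWIST1 cells. The IFITM proteins, which block the fusion of viruses with the cell membrane, had 0.22 (IFITM1), 0.11 (IFITM2) and −0.29 (IFITM3) in shTWIST1 + TWIST1 cells. OAS3, a larger oligoadenylate synthetase, had −0.44, DDX60, a helicase tied to RNA sensing, −0.25, and GBP2, a relative of GBP1, −0.31, each with overlapping groups. None of these 8 genes passed the test in any of the 3 comparisons. The plot of fold changes shows all members in the 3 comparisons.

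**Figure D4:**
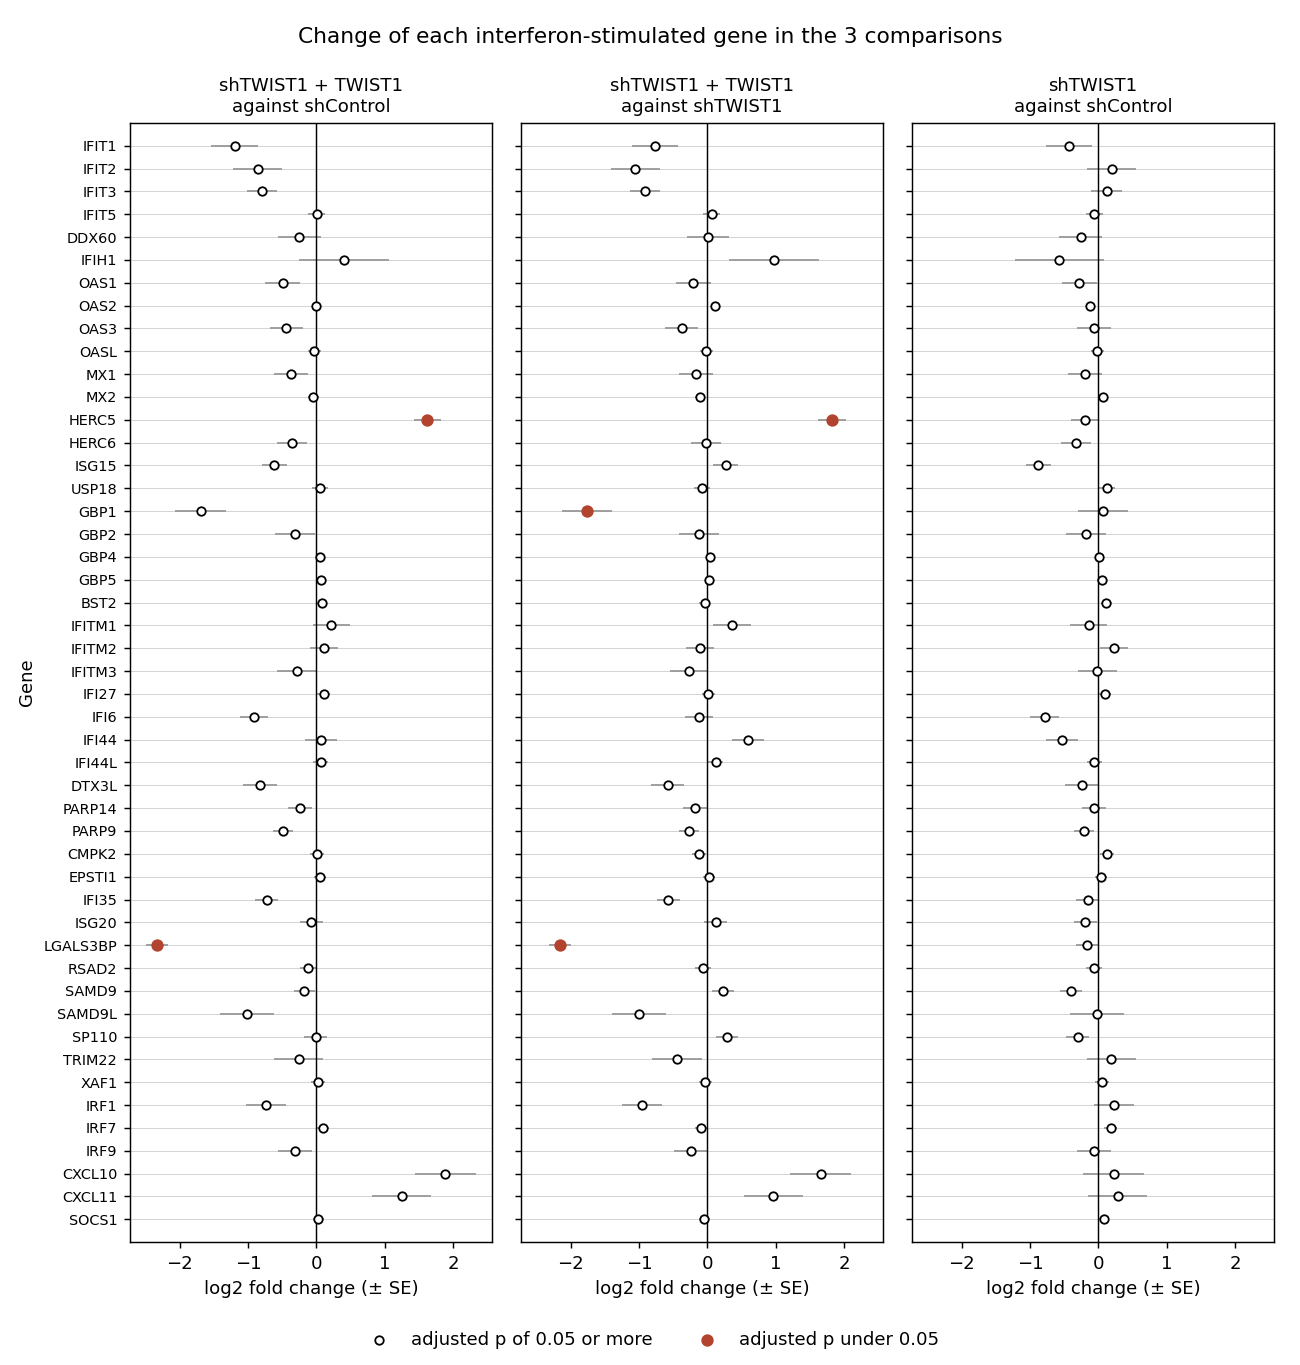
Points give the log2 fold change of each of the 48 interferon-stimulated genes and bars its SE, with 1 panel for each comparison; filled red points passed an adjusted p of 0.05 in limma. HERC5 lies to the right and LGALS3BP to the left in both panels with shTWIST1 + TWIST1, GBP1 passes only in the middle panel, and no point passes for shTWIST1 against shControl.

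Arrays of one replicate number shared deviations in these genes across the groups. In 11 of 48 members (22.9%) replicate 3 was the lowest array of all 3 groups, beside 4.28% of all genes: IFI6, IFIH1, MX1, HERC6, PARP9, PARP14, GBP1, GBP2, IFITM3, SP110 and CXCL10. In 7 members (14.6%) replicate 2 was the highest array of all 3 groups, beside 7.91% of all genes, and IFIH1, MX1, GBP2 and CXCL10 did both. The median SD within groups was 0.27 for the members and 0.15 for all genes, and 21 members had one over 0.3, where 12.7% of all genes did. IFIH1 had the largest, 0.95, and CXCL10, CXCL11, SAMD9L and GBP1 followed with values between 0.53 and 0.64. What the numbers stand for is not given in the sources used here, and what part of this spread is technical was not tested.

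**Figure D5:**
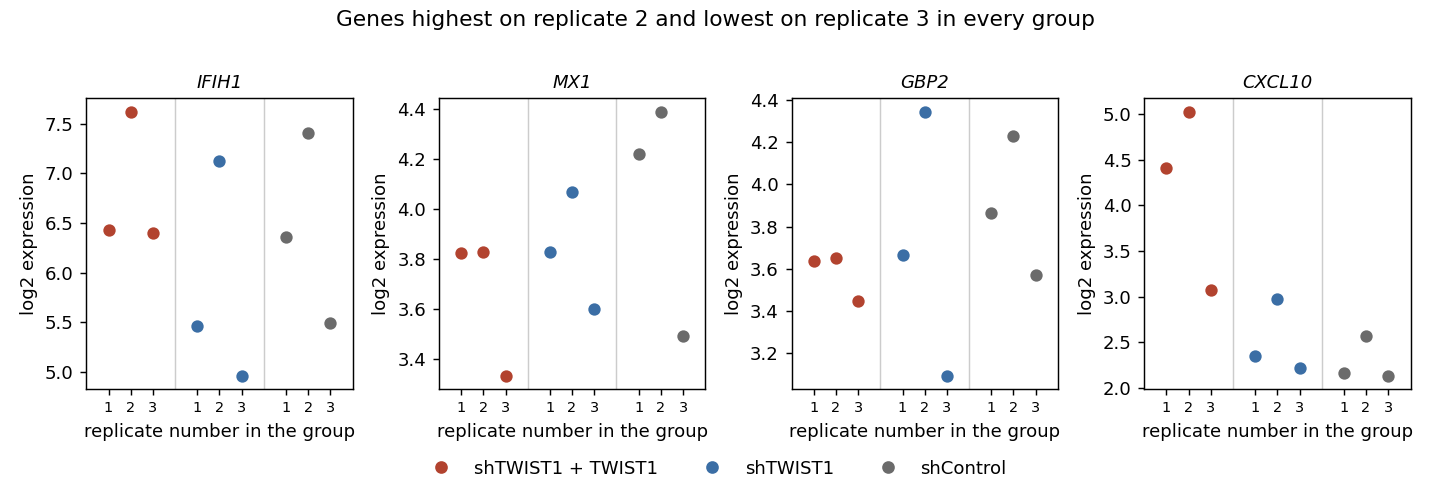
Points give the log2 expression of IFIH1, MX1, GBP2 and CXCL10 on each array, with the replicate number on the x axis and shTWIST1 + TWIST1 on the left, shTWIST1 in the middle and shControl on the right of each panel. The y axes differ between panels and do not start at 0. In every group replicate 2 is the highest and replicate 3 the lowest array.

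Of 55 listed genes of interferon production and signalling outside the 48, 51 were measured and the others were not analysed here. In shTWIST1 + TWIST1 cells 1 of 51 passed against shControl (1.96%, beside 2.62% of all genes) and 3 of 51 against shTWIST1 (5.88%, beside 3.42%). None passed in shTWIST1 against shControl (beside 0.0652%), where 2 (3.92%, beside 6.62% of all genes) had an unadjusted p under 0.05. The t-test with unequal variance called 0 of all genes there, so it says nothing about this list. CIITA, the master activator of MHC class II genes and a target of IRF1 and the STAT pathway, measured 4.07, 4.11 and 4.10 in shTWIST1 + TWIST1 cells, 5.54, 5.05 and 5.28 in shTWIST1 cells and 5.67, 4.99 and 5.22 in shControl cells. All arrays with the cDNA were lower than all others, and the gene fell by 1.20 ± 0.18 against shControl (adjusted p = 0.0122) and by 1.20 ± 0.18 against shTWIST1 (adjusted p = 0.0107). Its adjusted p stayed at or under 0.0468 without any single array. With the replicate number as a block, 4 of 51 (7.84%, beside 5.4% of all genes) passed against shTWIST1. The fourth was SOCS3, an inhibitor of JAK signalling. It measured 4.85, 4.35 and 4.43 in shTWIST1 + TWIST1 cells, 5.44, 4.99 and 5.54 in shTWIST1 cells and 5.30, 4.89 and 5.45 in shControl cells, lowest with the cDNA without overlap, and its log2 fold change against shTWIST1 was −0.78 (adjusted p = 0.0192 with the block and 0.0881 without it).

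IFNGR2, the signalling chain of the interferon gamma receptor, measured 10.18, 10.56 and 10.02 in shTWIST1 + TWIST1 cells, 9.40, 9.69 and 9.40 in shTWIST1 cells and 9.56, 9.93 and 9.81 in shControl cells. It was higher with the cDNA without overlap and rose by 0.76 ± 0.16 against shTWIST1 (adjusted p = 0.0408). RIGI, a sensor of viral RNA ends, measured 5.71, 5.88 and 5.94 in shTWIST1 + TWIST1 cells, 5.33, 5.26 and 5.20 in shTWIST1 cells and 5.77, 5.77 and 5.38 in shControl cells. It rose by 0.58 ± 0.12 against shTWIST1 (adjusted p = 0.0395) without overlap, and its values with the cDNA overlapped with shControl. Both calls lay near the threshold and were lost when most of the arrays were left out one at a time. That of RIGI was kept only without shControl replicate 3, and that of IFNGR2 only without shTWIST1 + TWIST1 replicate 3, shTWIST1 replicate 2 or shControl replicate 1, with adjusted p-values of up to 0.124 and 0.139. Against shTWIST1, IFNGR1, the ligand-binding chain of the gamma receptor, had a log2 fold change of 0.52 (adjusted p = 0.326), the type I receptor chains IFNAR1 and IFNAR2 0.12 and 0.26, and the kinases JAK1, JAK2 and TYK2 0.15, 0.08 and −0.04, none past the test.

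The 20 interferon genes measured included IFNB1, IFNG and the lambda genes. Of these 17 had a mean under the lower quartile of all genes, and none passed in any comparison. At an unadjusted p under 0.05 there were 2 against shControl (10%, beside 14.2% of all genes) and 1 against shTWIST1 (5%, beside 17.3%) in shTWIST1 + TWIST1 cells, and none in shTWIST1 cells. The t-test with unequal variance called none of them. Of all genes it called 3 against shControl and 2 against shTWIST1 in shTWIST1 + TWIST1 cells, and 0 in shTWIST1 cells, so it cannot show whether they changed. A low level of interferon transcript may lie under what these probe sets can show.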

How the data were processed

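Total RNA of 9 samples labelled as WM793TR melanoma cells was amplified, labelled with biotin and hybridised to expression arrays. The authors deposited log2 expression values made with RMA, one probe set for each Entrez gene ID; the RMA version and the annotation version are not given in the sources used here. Of 20673 probe sets, 19935 had a gene symbol and 738 had none; for the 1 symbol with several probe sets that with the highest mean was kept, which left 19934 genes. Values were used as deposited.

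All 9 arrays and 3 groups were fitted with limma 3.58.1 (lmFit and eBayes) in R 4.3.3, with Benjamini-Hochberg adjustment of the p-values over every gene tested and 0.05 as the threshold; the code was tested on simulated data. Non-overlap means that all 3 values of a group lay above or below all 3 of the other. Groups share arrays between comparisons, so no overlap or correlation between comparisons was computed, and no likeness between genes, since the groups form clusters. Same-numbered arrays deviated together in shTWIST1 + TWIST1 against shTWIST1 (correlations of deviations over genes 0.14, 0.30 and 0.30) and in shTWIST1 against shControl (0.32, 0.51 and 0.29). In shTWIST1 + TWIST1 against shControl the correlations were 0.03, 0.22 and 0.11, so the numbers do not pair those arrays by this check. The alternative with the replicate number as a block was 1 fit over all 9 arrays and gave all 3 comparisons, that one included. The methods' t-test with unequal variance and other settings were alternatives. Members passing the test were named with all their values, and up to 10 further ones a comparison by size of change. The members and lists were chosen with earlier results of these data known. The number of arrays limits the precision. Python 3.11.15, pandas 2.3.3, numpy 2.4.6 and matplotlib 3.10.9 handled tables and plots.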

Additional observations from a re-analysis of the deposited data

How the results depend on the processing

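Of 1020 values of 19 named members under 18 alternatives, 983 kept their side of the threshold, 22 newly passed it and 15 no longer did. Most of the 1020 belong to differences that did not pass at first, so the 983 say little about how stable the calls were. GBP1 against shTWIST1 lost its call with array weights (adjusted p = 0.0534) and with only the 6 arrays compared (adjusted p = 0.107), among others. No value that passed in either fit changed direction. Values that passed in neither were not compared by direction, and some changed sign. Without single arrays, IFIT2 in shTWIST1 against shControl ranged between −0.22 and 0.50. With the replicate number as a block, 7 members (14.6%) passed for shTWIST1 + TWIST1 against shControl. There 3 signalling genes (5.88%) and 801 genes in all (4.02%) passed, and the numbers do not pair those arrays by the check used. Beside HERC5 and LGALS3BP these members were CXCL10, which was higher (adjusted p = 0.0189), and 4 that were lower. The latter were GBP1 (adjusted p = 0.0215), IFI6 (adjusted p = 0.00962), IFIT1 (adjusted p = 0.0272) and PARP9 (adjusted p = 0.0252). Against shTWIST1, 7 members (14.6%), 4 signalling genes (7.84%) and 1076 genes (5.4%) passed. HERC5, LGALS3BP, GBP1, CXCL10 and CIITA passed in both, and no member passed for shTWIST1 against shControl. Array weights gave 4 members and 639 genes in all for shTWIST1 + TWIST1 against shControl, and 2 members and 793 genes against shTWIST1. For shTWIST1 against shControl they gave 0 members and 25 genes. With only the 6 arrays compared, 260 and 353 genes passed in the comparisons of shTWIST1 + TWIST1 with shControl and with shTWIST1. The t-test with unequal variance gave 0 members and 0 signalling genes in either, with 3 and 2 genes in all, and 0 genes in shTWIST1 against shControl. It estimates each gene's spread from its own 6 arrays. When dim genes were left out, HERC5 and CXCL10 were not tested, GBP1 passed against shControl (adjusted p = 0.0351), as did IFI6 (adjusted p = 0.0444), and IFIT3 passed against shTWIST1 (adjusted p = 0.0495).

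Without single arrays, members called ranged between 2 and 4 in shTWIST1 + TWIST1 against shControl, 2 and 3 against shTWIST1, and 0 and 1 in shTWIST1 against shControl, the 1 being ISG15 without shControl replicate 3. Signalling genes called ranged between 1 and 2 in shTWIST1 + TWIST1 against shControl and between 1 and 2 against shTWIST1. All genes called ranged between 264 and 523, 295 and 887, and 8 and 14 in the 3 comparisons. The median log2 fold change of the members ranged between −0.17 and −0.01, −0.13 and −0.02, and −0.14 and 0.01. Other causes of these changes were not tested. With 3 arrays a group, changes under 2-fold often stay within the spread, and 11 members may be too dim for a small change to be seen.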
